A study of Mus musculus with 24 samples.

Results

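ATB-346 was set against naproxen in the colon of ApcMin mice: 6 arrays of ATB-346-treated animals against 6 arrays of naproxen-treated animals, 12 of the 24 arrays of the series. The 12 arrays were taken by their labels, and no measured value entered the choice. The question is what separates colon exposed to ATB-346, an NSAID that releases hydrogen sulfide, from colon exposed to a conventional NSAID, weeks after dosing had ended.

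All mice were C57Bl/6. The naproxen and ATB-346 groups, and the ApcMin vehicle group of 8 arrays, carried APCMin/+, a mutation in a single copy of the tumour suppressor gene Apc. The wild-type vehicle group held 4 arrays. Dosing was by gavage once a day for 7 days from 6 weeks of age, with naproxen at 10 mg/kg, ATB-346 at 14.5 mg/kg, or vehicle (0.05% DMSO and 0.95% carboxymethylcellulose), and colon was collected at 14 weeks, 7 weeks after the last dose. The doses differed by weight, so drug and dose cannot be told apart. Whether the arrays stem from different animals is not stated, so a p-value here covers only the variation among these samples, technical variation included. Replicates numbered 1 to 4 and replicates numbered 5 and 6 of each drug group differed across the array as a whole, and the difference between the drugs was fitted with that numbering as a block. Of 9048 tested targets, 3358 differed with the numbering, 1328 higher and 2030 lower in the later numbers.

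NSAIDs such as naproxen block the cyclooxygenases, which make prostaglandins from arachidonic acid. Hydrogen sulfide is a signalling gas that tissues also make themselves from sulfur amino acids. In ApcMin mice, loss of Apc function lets beta-catenin accumulate, and its targets drive the growth of intestinal adenomas. Colon cells make cholesterol through the mevalonate pathway, whose genes are switched on together by the transcription factor SREBP-2 when sterols in the cell are low.

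Signals are given as log2 normalized signal, and a difference is the ATB-346 level minus the naproxen level on that scale, from the fit with the numbering block, with its standard error (SE). Array medians before normalization lay between 81.4 and 102.9 intensity units. Precision was set by the array number: the 95% interval of a typical gene was 0.17 wide on each side. The intestinal genes Vil1, Cdx1 and Cdx2 were well measured on the 12 drug arrays, at 11.36 to 12.05, 10.75 to 11.20 and 10.00 to 12.56, where Cdx2 was lowest on ATB-346 replicate 4. The colonocyte chloride exchanger Slc26a3 lay near the floor of 5.65 (5.98 to 6.89). Muc2 and Car1 were not analysed here. In whole colon, fewer cells of a type and less RNA per cell cannot be told apart.

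No gene passed the test. Limma called 0 of 9048 targets (0%) at an adjusted p under 0.05, and the smallest adjusted p was 0.115. At an unadjusted p under 0.05 there were 952 targets (10.5%), of which 545 (6.02%) were higher after ATB-346 and 407 (4.5%) lower. The median difference over all tested targets was 0.00, and 4629 of the 9048 were higher after ATB-346. Only 36 differences exceeded 1 log2 unit. The 6 ATB-346 and 6 naproxen arrays did not overlap in 21 targets (0.232%), 11 higher and 10 lower after ATB-346. Random ordering of 6 and 6 arrays gives a share of about this size, so a lack of overlap alone marks no gene as different. Differences below are thus described as values, with unadjusted p-values where these help to order them, and none of them is a call.

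The genes of cholesterol synthesis were higher after ATB-346 than after naproxen. Of 25 genes in the list 20 were measured and 18 tested, and all 18 were higher after ATB-346 than after naproxen, with a median of 0.52. Of these, 14 had an unadjusted p under 0.05 and 0 passed over all targets, against 6.02% of all tested targets that were higher at the same unadjusted p. Of 48 lists with at least 4 tested members, this one had the highest median. Srebf1 and Fasn, of fatty acid synthesis, were measured but too dim to be tested. The cholesterol list was one of many lists described with earlier results of these data known.

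Mvd, which makes isopentenyl diphosphate, differed by 0.67 ± 0.24 (SE), and Fdps, which builds farnesyl diphosphate, by 0.53 ± 0.19. Idi1, the isomerase that turns isopentenyl into dimethylallyl diphosphate, lay at 6.35, 6.38, 6.63, 6.71, 7.46 and 7.71 on naproxen replicates 1 to 6. On ATB-346 replicates 1 to 6 it lay at 6.72, 7.08, 7.49, 6.94, 7.81 and 8.61. Within each numbering the ATB-346 arrays were the higher ones, with replicates 5 and 6 of both drugs above replicates 1 to 4, except that ATB-346 replicate 3 passed naproxen replicate 5. The difference was 0.57 ± 0.15 (SE), or 1.48-fold, with a 95% interval of 0.26 to 0.87 (limma adjusted p = 0.287).

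Sqle, the epoxidase at the first oxygen-dependent step, differed by 0.62 ± 0.24 (SE). Lss, which closes the sterol ring to lanosterol, lay at 8.53, 8.54, 8.59, 9.37, 9.51 and 9.18 after naproxen and at 9.17, 9.82, 10.17, 9.45, 9.32 and 10.10 after ATB-346. The naproxen arrays numbered 1 to 3 were the low ones, and the groups overlapped between 9.17 and 9.51. Lss differed by 0.72 ± 0.20 (SE), or 1.65-fold (adjusted p = 0.304). Cyp51, the lanosterol demethylase, differed by 0.56 ± 0.19, and Msmo1, which takes methyl groups off the sterol ring, by 0.70 ± 0.24.

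Nsdhl, a sterol dehydrogenase that acts with Msmo1, lay at 8.03, 8.04, 8.07, 8.30, 8.09 and 7.94 after naproxen. After ATB-346 it lay at 8.33, 8.55, 8.37, 8.52, 8.22 and 9.22. Only naproxen replicate 4 and ATB-346 replicate 5 crossed, and the difference was 0.46 ± 0.13 (SE, adjusted p = 0.287). Hsd17b7, a sterol keto-reductase, differed by 0.56 ± 0.17. Dhcr7, the reductase that yields cholesterol, differed by 0.25 ± 0.12, and Ebp, a sterol isomerase, by 0.14 ± 0.13 with a 95% interval that held 0.

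Regulators and transport genes of the pathway did not all differ alike. Insig1, a sterol sensor that retains SREBP in the endoplasmic reticulum and is itself an SREBP target, differed by 0.47 ± 0.16. Stard4, a carrier of cholesterol between membranes, differed by 0.32 ± 0.09. Scd2, a fatty acid desaturase, differed by 0.51 ± 0.26, with an interval that held 0. Srebf2, which encodes SREBP-2, differed by 0.06 ± 0.10 (95% interval -0.15 to 0.26).

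**Figure D1:**
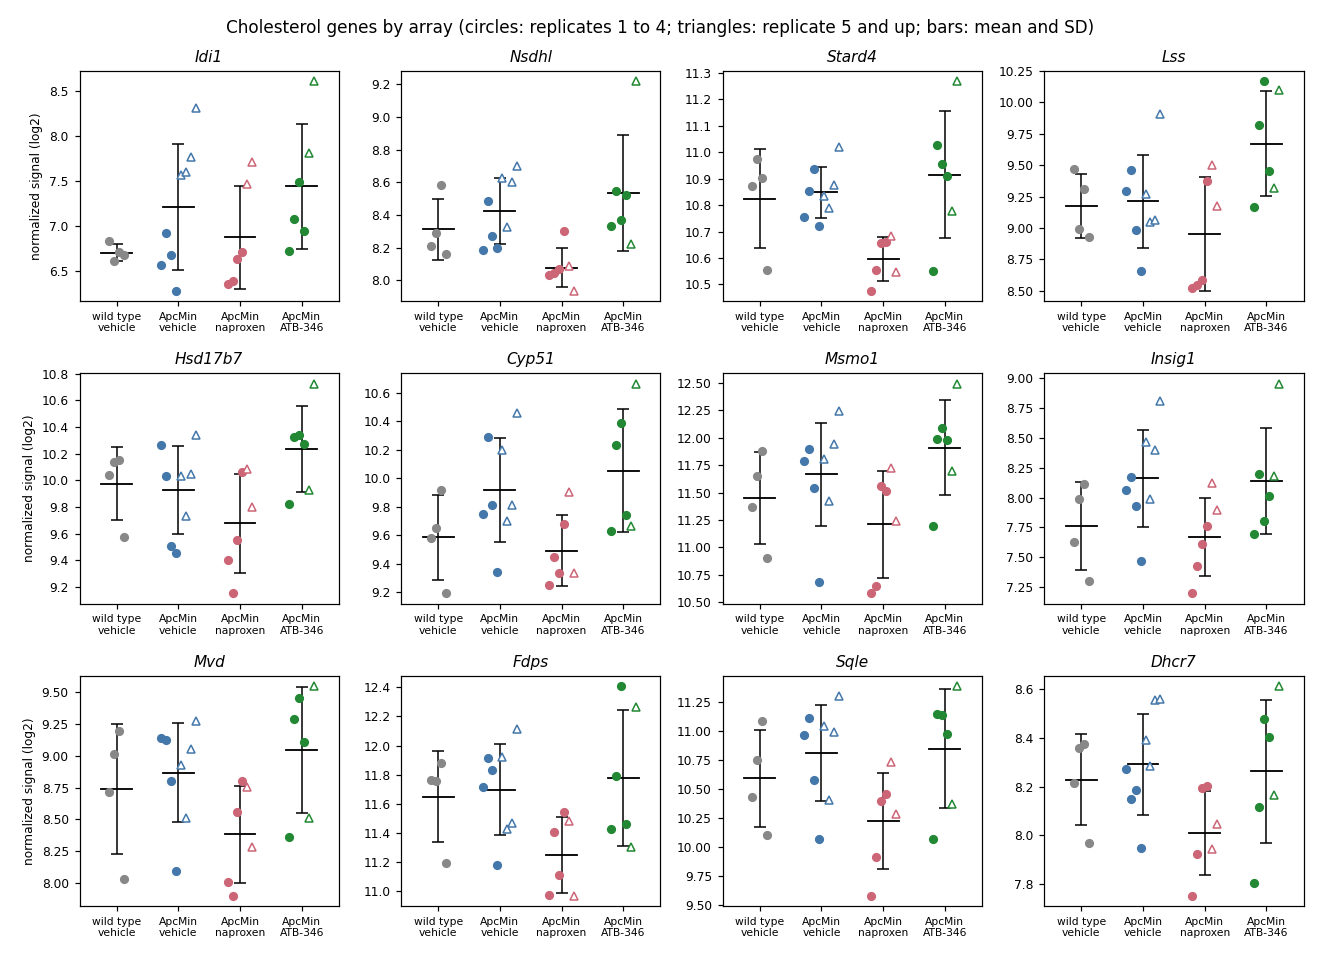
Log2 normalized signal (vertical axes) of 12 of the cholesterol genes, one panel a gene, for each array of the 4 groups; circles are replicates 1 to 4, triangles replicates numbered 5 and up, and bars the mean and SD. Naproxen arrays tend to the low end of each panel and ATB-346 arrays to the high end, with vehicle arrays spanning both, as for Lss at 8.95 ± 0.45 (SD) after naproxen and 9.67 ± 0.42 after ATB-346.

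Averaged over the 18 genes, the naproxen arrays lay at 8.65, 8.76, 8.99, 9.19, 9.30 and 9.01, and the ATB-346 arrays at 8.99, 9.50, 9.64, 9.40, 9.22 and 9.97. Replicates 2, 3, 4 and 6 of ATB-346 were above every naproxen array, and replicates 1 and 5 were within the naproxen range. The 8 ApcMin vehicle arrays spanned 8.79 to 9.75 and the 4 wild-type arrays 8.84 to 9.46, so that untreated colon covered most of both drug groups. The group mean was 9.45 ± 0.34 (SD) after ATB-346, 8.99 ± 0.25 after naproxen and 9.34 ± 0.28 on the ApcMin vehicle arrays. The vehicle mean was thus nearer that of ATB-346, and neither drug was tested against vehicle here. The median difference was 0.50 within replicates 1 to 4, where 18 of 18 genes were higher after ATB-346, and 0.46 within replicates 5 and 6, where 17 were.

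The stretch before the gene start is shown for the 6 cholesterol genes with the smallest p that have an entry in the RefSeq promoter table (GRCm38.p6), because these genes differed in the same direction. Each line gives the 120 bases before the start that this table uses, 5′ to 3′ on the gene's strand. Capitals mark CCAAT on either strand (the letters bound by NF-Y, a partner of SREBP at sterol-regulated genes) and, where present, TCACNNCAC, a loose form of the sterol regulatory element. For Lss and Hsd17b7 the RefSeq gene table places the edge of the gene further upstream, and the 40 and 37 bases inside the gene were left out.
Idi1, chr13:8885486-8885605, plus strand: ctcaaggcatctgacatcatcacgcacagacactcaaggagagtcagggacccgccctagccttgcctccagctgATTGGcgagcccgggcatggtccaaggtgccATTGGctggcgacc
Nsdhl, chrX:72918401-72918520, plus strand: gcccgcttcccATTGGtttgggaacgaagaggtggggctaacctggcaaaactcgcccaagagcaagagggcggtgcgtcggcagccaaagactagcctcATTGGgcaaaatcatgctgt
Lss, chr10:76531485-76531564, plus strand: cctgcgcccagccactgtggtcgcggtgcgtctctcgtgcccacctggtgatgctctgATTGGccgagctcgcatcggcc
Hsd17b7, chr1:169969243-169969325, minus strand: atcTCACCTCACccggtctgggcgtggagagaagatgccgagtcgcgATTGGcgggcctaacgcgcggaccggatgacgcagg
Cyp51, chr5:4104698-4104817, minus strand: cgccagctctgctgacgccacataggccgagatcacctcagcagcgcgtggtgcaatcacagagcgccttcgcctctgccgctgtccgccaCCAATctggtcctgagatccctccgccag
Msmo1, chr8:64733579-64733698, minus strand: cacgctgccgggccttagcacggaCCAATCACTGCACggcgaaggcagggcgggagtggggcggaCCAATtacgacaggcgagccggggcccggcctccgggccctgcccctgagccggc
In Msmo1 the element and a CCAAT share a base. CCAAT was present on either strand in all 6 windows. Over the 250 bases before the promoter table's start it was found in 10 of the 11 tested cholesterol genes with an entry, against 34.5% of 27025 promoters of the same length. TCACNNCAC was found in 2 of the 11, Hsd17b7 and Msmo1, against 3.08% of all, and TCACCCCAC in 0 of the 11, against 0.466%. These matches describe letters in a short window and were not tested for binding.

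The level of Osr2 tended to run opposite to that of the cholesterol genes. Osr2 is a transcription factor gene of the colon position list, and the arrays differed widely in it. It lay at 12.80, 12.54, 10.63, 12.36, 11.60 and 12.66 after naproxen, and at 12.89, 9.56, 7.56, 7.62, 12.80 and 9.01 after ATB-346. The ATB-346 arrays with high Osr2, replicates 1 and 5, are those whose cholesterol mean was within the naproxen range, and the other 4 had lower Osr2 than every naproxen array. Among the vehicle arrays, which received no drug, those with the highest Osr2 tended to have low cholesterol means. Osr2 was at 12.89 and 12.83 on ApcMin vehicle replicates 4 and 6 and at 13.00 on wild-type replicate 4, and their cholesterol means were 8.79, 9.20 and 8.84. On the other vehicle arrays Osr2 was at most 10.42 and the cholesterol means were 9.20 to 9.75. The lowest of these means was on wild-type replicate 1, where Osr2 was at 6.60. Naproxen replicate 3, lowest of its group in Osr2, had a cholesterol mean of 8.99, below the 9.19 of naproxen replicate 4. Hoxb7, a positional homeobox gene, was split the same way, at 10.81 and 10.82 on ATB-346 replicates 1 and 5 and at 7.07 to 8.79 on the others, against 8.96 to 11.04 after naproxen. Hoxd10 was at 9.68 on ATB-346 replicate 4, so not every positional gene followed Osr2. The colon position list as a whole had 8 of 23 tested members higher and 15 lower after ATB-346, with a median of -0.26 and 1 member in each direction at an unadjusted p under 0.05. Its mean over the arrays ran from 8.49 to 9.04 after naproxen and from 8.05 to 9.03 after ATB-346.

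With the Osr2 level as a covariate beside the numbering, an alternative chosen after seeing the data, the cholesterol median was 0.30 in place of 0.52. Of the 18 genes 15 remained higher after ATB-346, and 11 had an unadjusted p under 0.05, against 6.11% of all tested targets higher at that p in this fit. Idi1 was then at 0.44, Lss at 0.51 and Nsdhl at 0.38, while Ebp and Srebf2 were at -0.05 and -0.04. In that fit 15 of the 18 had a negative Osr2 slope at a limma adjusted p under 0.05, against 13.2% of all tested targets.

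**Figure D2:**
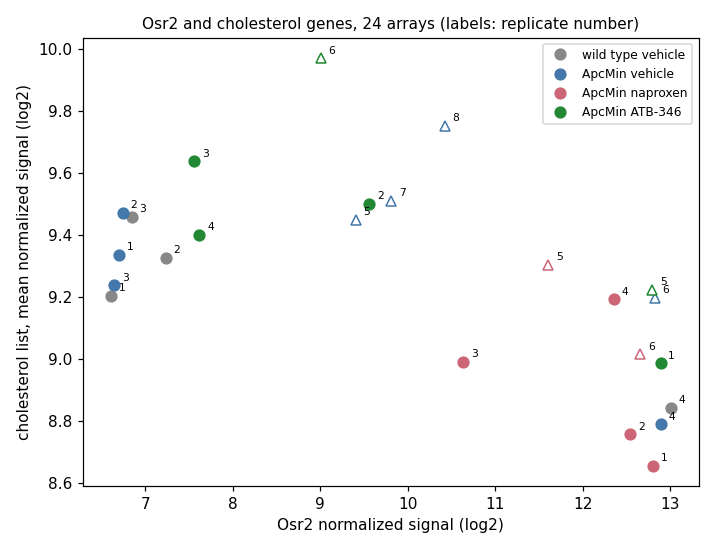
Mean log2 normalized signal of the 18 cholesterol genes (vertical) against Osr2 (horizontal) on each of the 24 arrays, coloured by group and labelled with the replicate number; triangles are replicates numbered 5 and up. ATB-346 replicates 2, 3, 4 and 6, with Osr2 between 7.56 and 9.56, lie above all naproxen arrays, and ATB-346 replicates 1 and 5 lie at high Osr2 among them.

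Among single genes, Ccnd1 was lower and the NF-kappaB inhibitor gene Nfkbia higher after ATB-346, each with no overlap between the drugs. Ccnd1, cyclin D1 of the G1 phase and a target of beta-catenin, lay at 10.53, 10.68, 10.51, 10.65, 10.74 and 10.85 after naproxen. After ATB-346 it lay at 10.05, 10.49, 10.38, 10.05, 10.25 and 9.86. The naproxen arrays were close together and the ATB-346 arrays spread below them, at -0.48 ± 0.09 (SE, 95% interval -0.67 to -0.29, adjusted p = 0.115). ApcMin vehicle arrays lay at 10.46 to 10.69. Without ATB-346 replicate 2, the highest of its group, Ccnd1 passed over all targets (-0.55, limma adjusted p = 0.0305), the only call in any setting run.

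Other cell cycle genes near Ccnd1 differed less. Ccnd3, cyclin D3, differed by -0.21 ± 0.08 (SE), at -0.07 within replicates 1 to 4 and -0.49 within 5 and 6. Cdkn1a, the p21 inhibitor of cyclin-dependent kinases and a p53 target, lay at 10.37, 10.13, 10.61, 10.66, 10.41 and 10.35 after naproxen and at 10.62, 10.95, 10.44, 11.15, 10.85 and 11.16 after ATB-346. It differed by 0.44 ± 0.13 (SE), with ATB-346 replicate 3 and, narrowly, replicate 1 among the naproxen values. The G1 list had 5 of 15 tested members higher and 10 lower (median -0.05). Of 23 tested S phase and mitosis genes 10 were higher and 13 lower, with a median of -0.01 and 0 at an unadjusted p under 0.05 in either direction. The p53 and apoptosis list had 16 of 25 members higher, including Trp53inp1 at 0.20 ± 0.08 and the apical caspase gene Casp9 at 0.12 ± 0.05, while Phlda3, a p53 target that restrains Akt, was at -0.24 ± 0.10. At an unadjusted p under 0.05, 4 of the 25 were higher and 1 lower, against 6.02% and 4.5% of all tested targets.

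The Wnt list, which holds Ccnd1, had 4 of 13 tested members higher and 9 lower, with a median of -0.04. Cd44, an adhesion receptor and Wnt target, differed by -0.45 ± 0.18 (SE), and Jun, a subunit of AP-1, by 0.35 ± 0.11. Apc differed by -0.07 ± 0.07 and Ctnnb1, which encodes beta-catenin, by 0.06 ± 0.07, and both intervals held 0. The Min allele is a point mutation, so the Apc level checks no label.

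Nfkbia, whose product holds NF-kappaB in the cytoplasm, lay at 9.60, 9.52, 9.47, 9.33, 9.35 and 9.12 after naproxen and at 9.72, 10.64, 9.79, 9.83, 9.72 and 10.09 after ATB-346. Replicate 2 was the highest ATB-346 array, and the lowest still lay above every naproxen array. The difference was 0.57 ± 0.12 (SE), or 1.48-fold (adjusted p = 0.177), at 0.52 within replicates 1 to 4 and 0.67 within 5 and 6, and 0.54 with the Osr2 covariate. Tnfaip3, the ubiquitin-editing inhibitor A20, differed by 0.88 ± 0.30, and Nfkbiz, an inducible co-regulator, by 0.64 ± 0.23. Tnfaip3 overlapped, since naproxen replicate 3 stood at 8.79 and ATB-346 replicate 1 at 7.91. Gadd45b, a stress gene also induced by NF-kappaB, lay at 7.37 to 7.61 after naproxen and 7.71 to 7.99 after ATB-346, with no overlap (0.36 ± 0.09). Socs3, the brake on STAT3 signalling, differed by -0.22 ± 0.07. Over the whole inflammatory and NF-kappaB list 10 of 20 tested members were higher and 10 lower (median 0.01, and -0.08 with 9 of 20 higher under the Osr2 covariate). At an unadjusted p under 0.05, 3 of the 20 were higher and 2 lower, against 6.02% and 4.5% of all tested targets. Of 22 tested chemokine and receptor genes 7 were higher and 15 lower (median -0.08).

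**Figure D3:**
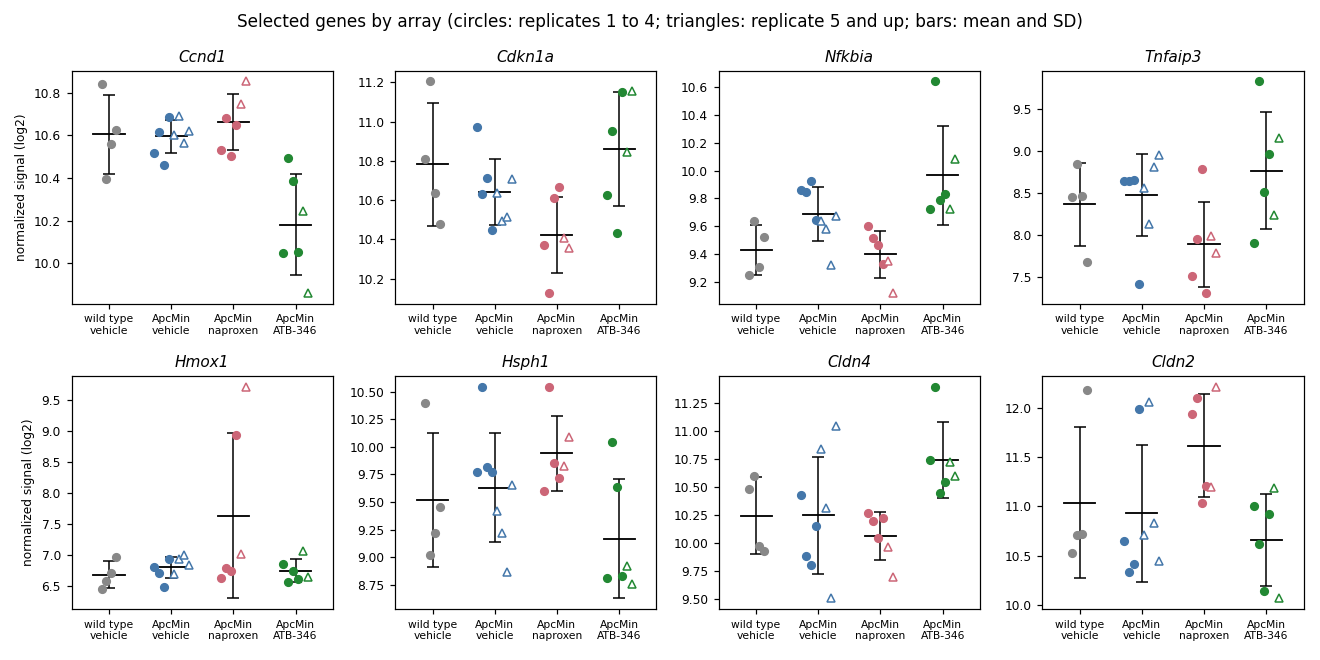
Log2 normalized signal (vertical axes) of 8 genes on each array of the 4 groups; circles are replicates 1 to 4, triangles replicates numbered 5 and up, bars the mean and SD. Ccnd1, Nfkbia and Cldn4 show ATB-346 and naproxen arrays that do not overlap, while Hmox1 stands out on naproxen replicates 4 and 6 alone, at 8.93 and 9.72.

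The remaining genes with the smallest p had modest differences. Higher after ATB-346 were Fbxl4, a mitochondrial F-box protein (8.25 to 8.51 after naproxen, 8.56 to 8.77 after ATB-346; 0.32 ± 0.06 SE), and the transcription factor gene Ubp1 (8.15 to 8.42 against 8.47 to 8.62; 0.23 ± 0.04), neither of which overlapped. Ap4b1, of an adaptor complex in vesicle sorting, differed by 0.23 ± 0.05, and Tmem209 by 0.18 ± 0.04. The genes Ndufb5, Nfu1, Mccc1 and Zkscan3 differed by 0.28 to 0.37 and stood far higher on replicates 5 and 6 of both drugs, as Ndufb5 at 9.44 to 9.94 on replicates 1 to 4 and 10.57 to 10.94 on 5 and 6.

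Lower after ATB-346 were Cul4b, a ubiquitin ligase scaffold (-0.19 ± 0.05), the ubiquitin ligase gene Pja1 (-0.27 ± 0.07) and Gpr37l1, a receptor of glial cells (-0.29 ± 0.08), and the drugs did not overlap in any of the 3. Srpk1, a kinase of splicing factors, differed by -0.30 ± 0.08, the GATA cofactor gene Zfpm2 by -0.30 ± 0.08, Map10 by -0.34 ± 0.09, Kctd15 by -0.27 ± 0.08, Hpcal4 by -0.24 ± 0.07 and Epb41l2, of the membrane skeleton, by -0.24 ± 0.06. The adjusted p of these 9 was 0.287 each. Zfpm2 was at -0.15 within replicates 1 to 4 and -0.59 within 5 and 6.

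**Figure D4:**
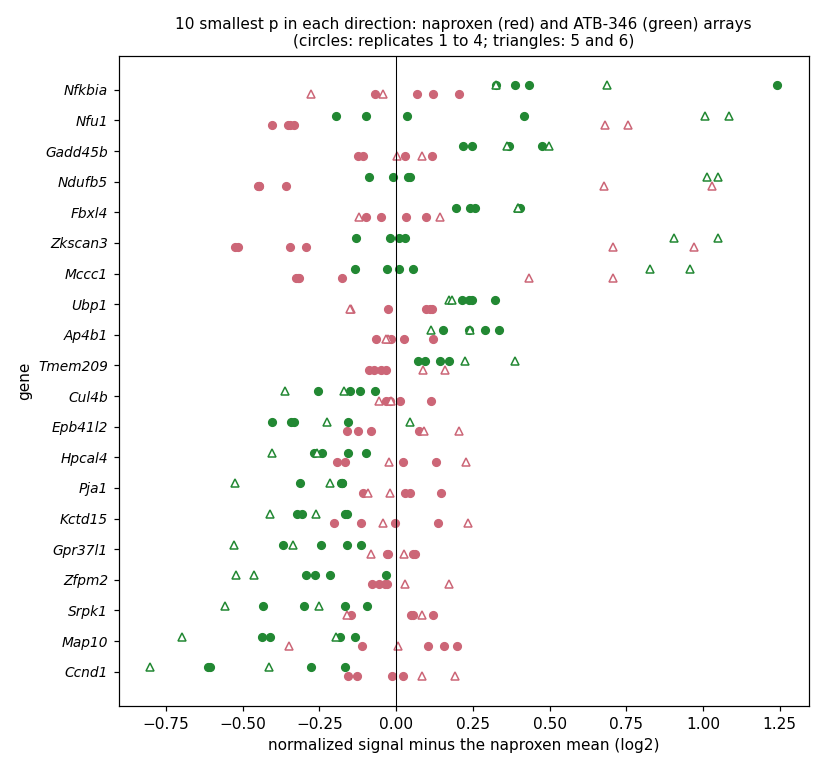
Log2 normalized signal minus the naproxen mean (horizontal) for the 10 genes with the smallest p in each direction (rows); red points are naproxen arrays, green points ATB-346 arrays, circles replicates 1 to 4 and triangles replicates 5 and 6. Ndufb5, Nfu1, Mccc1 and Zkscan3 split by replicate number within both drugs, whereas Ccnd1 and Nfkbia separate by drug.

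Targets of Nrf2, the regulator of the antioxidant response, were lower after ATB-346 in 20 of 24 tested members, with a median of -0.29. Their mean was far higher on 2 naproxen arrays than on the other 4. Hmox1, the inducible heme oxygenase, lay at 6.63, 6.79, 6.75, 8.93, 7.03 and 9.72 after naproxen and at 6.86, 6.57, 6.74, 6.62, 7.08 and 6.65 after ATB-346. Only naproxen replicates 4 and 6 were high, and the highest ApcMin vehicle array lay at 7.00. Gsta2, a glutathione transferase, was at 12.58 and 12.76 on the same arrays and at 8.06 to 9.91 on the other naproxen arrays, against 8.07 to 10.95 after ATB-346. Pgd, of the pentose phosphate pathway, was at 12.63 and 12.73 there, against 11.78 to 12.30 on the other 4 naproxen arrays. The list mean was 10.73 and 10.88 on those arrays, 9.60 to 9.95 on the other naproxen arrays and 9.62 to 10.26 after ATB-346. Of the 24 members 2 were lower at an unadjusted p under 0.05, against 4.5% of all targets. Without naproxen replicates 4 and 6, left out after seeing the data, the list median was -0.02, and Hmox1 differed by -0.06 and Gsta2 by 0.00. With the Osr2 covariate and all arrays kept, the list median was -0.04. The parts of these 2 arrays and of the Osr2 level in the difference were not tested.

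Prostaglandins and related prostanoids are made by the enzymes that NSAIDs block. Of 14 tested prostanoid genes 7 were higher and 7 lower (median 0.02), with 1 higher and 2 lower at an unadjusted p under 0.05, against 6.02% and 4.5% of all tested targets. Ptgs1, the constitutive cyclooxygenase, differed by 0.08 ± 0.11 (SE), with a 95% interval of -0.14 to 0.31. Ptgs2, the inducible cyclooxygenase, was at most 6.04 on any array, near the floor, and was not tested. Among receptors, Tbxa2r, for thromboxane, lay at 6.79 to 6.95 after naproxen and 6.52 to 6.84 after ATB-346 and differed by -0.19 ± 0.06, and Ptger3, for prostaglandin E2, by 0.19 ± 0.07. Ptgis, which makes prostacyclin, differed by -0.25 ± 0.10.

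Of the enzymes that produce hydrogen sulfide, Cth (cystathionine gamma-lyase) was higher and Cbs (cystathionine beta-synthase) lower after ATB-346. Cth lay at 7.70, 7.66, 7.46, 7.97, 7.83 and 7.99 after naproxen and at 7.92, 8.11, 7.69, 7.73, 8.42 and 8.35 after ATB-346, a difference of 0.27 ± 0.10 (SE). Cbs lay at 8.85, 9.18, 8.30, 9.03, 8.86 and 8.63 after naproxen and at 8.65, 8.70, 8.38, 7.85, 8.30 and 8.47 after ATB-346, a difference of -0.41 ± 0.17. The groups overlapped for both genes. With the Osr2 covariate Cth was at 0.31 and Cbs at -0.23. Mpst, which makes sulfide from mercaptopyruvate, differed by -0.21 ± 0.27, and Suox, sulfite oxidase, by -0.32 ± 0.12. The list of 10 tested genes had 4 higher and 6 lower (median -0.05).

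Epithelial genes of barrier and transport differed in a few members. Cldn4, a sealing claudin, lay at 10.27, 10.20, 10.04, 10.22, 9.96 and 9.69 after naproxen and at 10.74, 11.40, 10.45, 10.55, 10.72 and 10.60 after ATB-346. The drugs did not overlap, and the difference was 0.68 ± 0.22 (SE). Cldn2, a claudin that forms cation pores, lay at 11.04 to 12.21 after naproxen and 10.06 to 11.18 after ATB-346 and differed by -0.96 ± 0.34, or -0.45 with the Osr2 covariate. Tjp1, the scaffold protein ZO-1, differed by 0.38 ± 0.11. Of 20 tested tight junction genes 15 were higher and 5 lower (median 0.10). Water and electrolyte transport genes were higher in 18 of 21 tested members, with a median of 0.25, which was 0.05 with the Osr2 covariate, 0.50 without naproxen replicate 3 and 0.15 without ATB-346 replicate 4. They include Car4, a membrane carbonic anhydrase (0.90 ± 0.32), and Cftr, the apical chloride channel (0.23 ± 0.10), and 3 were higher at an unadjusted p under 0.05, against 6.02% of all tested targets. Reg3b and Reg3g, antimicrobial lectins, differed by -3.04 ± 1.31 and -1.62 ± 0.66, and by -0.77 and -0.55 with the Osr2 covariate. Reg3b lay at 12.66 and 10.84 on ATB-346 replicates 1 and 5, 10.32 on replicate 2 and 6.54 to 7.33 on replicates 3, 4 and 6, against 10.55 to 13.21 after naproxen. Gsdmc2 and Gsdmc3, of the pore-forming gasdermins, differed by -0.39 ± 0.23 and -0.34 ± 0.23 and both intervals held 0; these near-identical genes may share probe signal. Retnlb, a goblet cell product, ranged from 8.82 to 13.03 after naproxen and 8.53 to 13.68 after ATB-346.

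As lists, genes of connective tissue were lower after ATB-346 within the replicates numbered 5 and 6 but not within 1 to 4. Genes of nerve were lower within both, more so within 5 and 6. Of 37 tested fibroblast and matrix genes 29 were lower (median -0.12) and 7 were so at an unadjusted p under 0.05, against 4.5% of all tested targets. The median was 0.06 within replicates 1 to 4, where 19 of 37 were higher, and -0.42 within 5 and 6, where 0 were. The difference between the numberings reached an unadjusted p under 0.05 in 15 of the 37, all lower in 5 and 6, against 4.76% of all tested targets in that direction (7.92% in either). Limma called 0 of 9048 targets (0%) for that difference (smallest adjusted p = 0.250). Col6a2, a collagen VI chain, was at -0.23 within replicates 1 to 4 and -0.80 within 5 and 6, and Igfbp5, a matrix-bound growth factor carrier, at -0.35 and -0.62. The list mean was 9.96 and 9.59 on naproxen replicates 5 and 6, 9.40 and 9.32 on ATB-346 replicates 5 and 6, and 9.52 to 9.90 on the vehicle arrays.

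Smooth muscle genes had a median of -0.04, with 0.10 within replicates 1 to 4 and -0.42 within 5 and 6, where 0 of 25 were higher. The difference between the numberings reached an unadjusted p under 0.05 in 6 of the 25, all lower in 5 and 6, against 4.76% of all tested targets. The smooth muscle mean was highest on naproxen replicate 5, at 10.94, against 10.08 to 10.60 on the ATB-346 arrays. Flna, an actin crosslinker of that list, was at -0.21 and -0.81 in the numberings, and Cnn2, a calponin, at -0.18 and -0.50. Without naproxen replicate 5 the fibroblast median was -0.05. The part of muscle and connective tissue content in these values was not tested.

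Enteric neuron and glia genes were lower after ATB-346 in 13 of 14 tested members, with a median of -0.14, and 5 had an unadjusted p under 0.05, against 4.5% of all targets. Tac1, the precursor of substance P, lay at 9.42, 9.54, 9.43, 9.44, 9.73 and 9.45 after naproxen and at 9.24, 9.18, 9.32, 8.87, 9.24 and 9.26 after ATB-346, with no overlap (-0.31 ± 0.11 SE). Vip, the vasoactive intestinal peptide, differed by -0.31 ± 0.12, the neuronal ubiquitin hydrolase gene Uchl1 by -0.29 ± 0.10 and Stmn2, of growing axons, by -0.26 ± 0.10. The list mean was 7.84 to 8.26 after naproxen, 7.73 to 7.97 after ATB-346 and 7.61 to 7.98 on vehicle arrays. The list median was -0.10 with the Osr2 covariate, and -0.08 within replicates 1 to 4 against -0.34 within 5 and 6. Within replicates 1 to 4, 5 of the 14 were higher, and within 5 and 6, 1 was. The difference between the numberings reached an unadjusted p under 0.05 in 4 of the 14, all lower in 5 and 6, against 4.76% of all tested targets.

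Other groups held a few members that differed. Respiratory chain genes were higher in 31 of 42 tested members with a median of 0.03, including Cox7a2, of complex IV (0.29 ± 0.08), and Sdhd, of complex II (0.34 ± 0.10). Within replicates 1 to 4, 18 of the 42 were higher (median -0.02), and within 5 and 6, 36 were (median 0.09). Of 27 hypoxia and glycolysis genes 16 were higher (median 0.04), among them Pdk1, which restrains pyruvate entry into mitochondria (0.41 ± 0.11), and the angiogenic factor gene Vegfa (0.17 ± 0.06). The chaperones Hsph1 and Hsp90ab1 were lower, by -0.78 ± 0.25 and -0.34 ± 0.13, while 18 of 24 members of the immediate early and heat shock list were higher (median 0.13). That median was -0.11 within replicates 5 and 6, where 10 of 24 were higher, and -0.01 with the Osr2 covariate, with 12 of 24 higher. Pdia4, of protein folding in the endoplasmic reticulum, differed by -0.32 ± 0.12, with 8 of 21 members of its list higher (median -0.13). Of these 21, 13 were higher within replicates 1 to 4 (median 0.01) and 7 within 5 and 6 (median -0.15). Of 24 macrophage genes 18 were lower (median -0.08), among them Fcer1g, an Fc receptor chain (-0.29 ± 0.10), and Lgmn, a lysosomal protease (-0.38 ± 0.14). Ctss, another lysosomal protease of that list, went the other way and was higher by 0.39. At an unadjusted p under 0.05, 1 of the 24 was higher and 2 lower, against 6.02% and 4.5% of all tested targets. Tmem192, of the lysosomal membrane, did not overlap between the drugs (9.02 to 9.32 after naproxen, 9.37 to 9.62 after ATB-346; 0.25 ± 0.08), and Fnip1, a folliculin partner, differed by 0.13 ± 0.06. Hexa of the same list was lower, at 10.2 to 10.6 after naproxen and 10.0 to 10.3 after ATB-346. Of the 31 tested lysosome and folliculin genes 19 were higher and 12 lower (median 0.04). At an unadjusted p under 0.05, 3 of the 31 were higher and 1 lower, against 6.02% and 4.5% of all tested targets. Tfrc, the transferrin receptor of iron uptake, differed by 0.55 ± 0.26, with ATB-346 replicate 6 at 12.25 and the other ATB-346 arrays at 10.03 to 11.09, and by 0.27 without ATB-346 replicate 6.

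Markers of other tissues differed between arrays. Pnlip, pancreatic lipase, lay at 11.43, 7.44, 9.04, 6.71, 6.39 and 6.25 after naproxen and at 5.80 to 6.11 after ATB-346, and the vehicle arrays ran from 5.82 to 14.49. The pancreatic acinar list was lower after ATB-346 in 24 of 28 tested members (median -0.70, and -0.09 without naproxen replicates 1 and 3, left out after seeing the data), with 0 at an unadjusted p under 0.05. Its mean was 9.96 and 8.67 on naproxen replicates 1 and 3, 7.47 to 7.80 on the other naproxen arrays and 7.43 to 7.77 after ATB-346. With the acinar mean as a covariate Ccnd1 was at -0.49, Nfkbia at 0.56 and the cholesterol median at 0.55. Fat cell genes were lower in 13 of 14 tested members (median -0.31), with 0 at an unadjusted p under 0.05. The median was 0.01 with 7 of 14 higher under the Osr2 covariate, and -0.50 without ATB-346 replicate 1. Adipoq, which fat cells secrete, lay at 9.29 to 10.14 after naproxen and 7.23 to 10.54 after ATB-346. The fat list mean was lowest on ATB-346 replicates 2 and 3 (8.14 and 8.20), and its part in the values above was not tested.

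**Figure D5:**
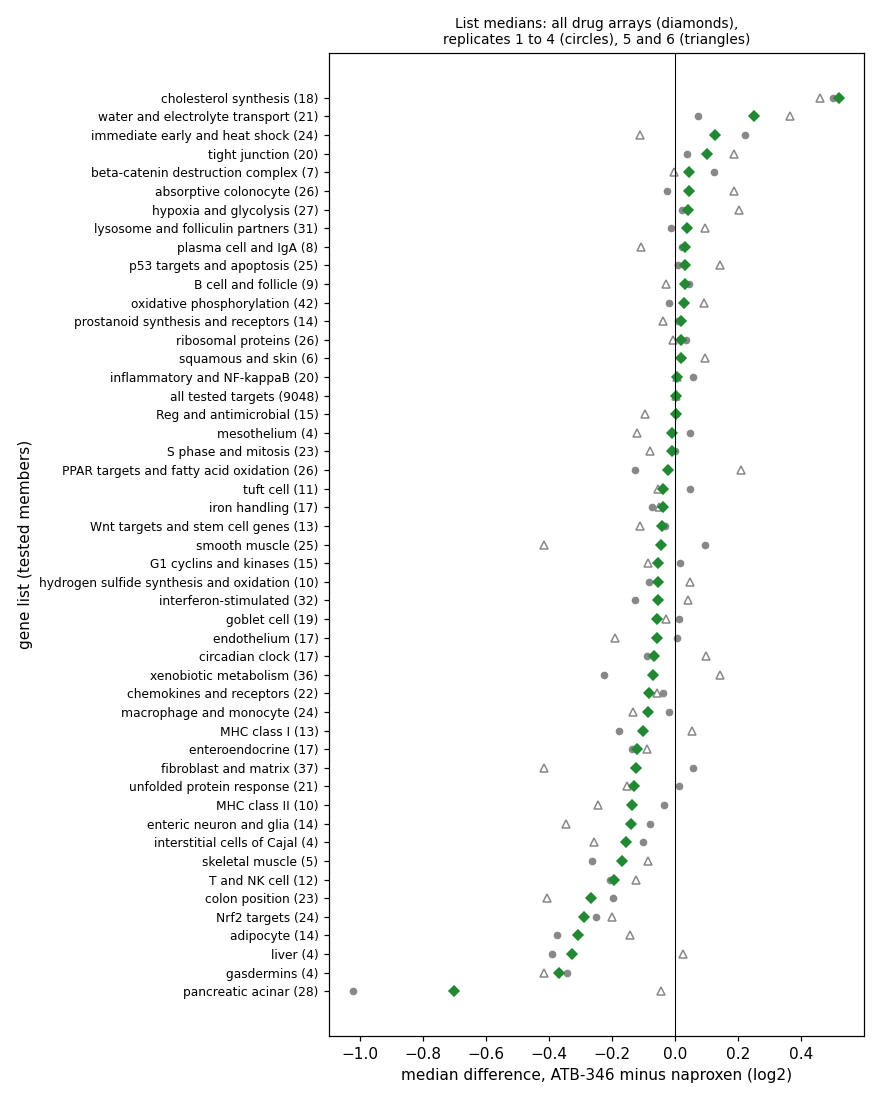
Median difference, ATB-346 minus naproxen (log2, horizontal), of each list with at least 4 tested members and of all tested targets (rows, number of tested members in parentheses); diamonds are all drug arrays, circles replicates 1 to 4 and triangles replicates 5 and 6. Cholesterol synthesis, at 0.52, lies apart on the higher side in both numberings, while fibroblast and smooth muscle lists differ between the numberings.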

How the data were processed

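Total RNA from mouse colon was hybridised to single-colour Illumina bead arrays. The deposited gene table gives linear intensity for 18097 targets. Per the file headers the authors exported it from GenomeStudio 1.7.0 and applied no normalization. The deposited series matrix holds linear intensity for 25697 probes, from GenomeStudio per the submitters' processing notes, and served as an alternative (23978 probes with 1 gene symbol, 1719 with none, 0 with several). Background subtraction and detection p-values are not given in the sources used here.

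Intensities were corrected with limma's normexp (offset 50), quantile-normalized over the 24 arrays and set to log2. This hides changes in total RNA and draws dim genes towards 0. Targets with a mean above the median of means (6.54) were tested, 9048 in all. By current symbol 14096 targets matched, 3025 by a synonym and 976 by neither, whose names are those of the table. Drug arrays correlated between 0.941 and 0.991, and none was treated as a repeat. A mean per group plus a numbering block (replicates 1 to 4 against 5 and up) was fitted to all 24 arrays with lmFit and eBayes (limma 3.58.1, R 4.3.3), with Benjamini-Hochberg adjustment over all tested targets and a threshold of 0.05. A fit with a mean per group and numbering tested whether the drug difference varied with the numbering. The fits were tested on simulated data.

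Genes were named by rule: 10 genes a direction in order of p (none being called), at most 4 members of a described list in order of p, and a fixed set of drug target, sulfide, Wnt and marker genes. Of 54 lists, those described were chosen, like the members and the lists themselves, with earlier results of these data known. Hoxd10 and the cholesterol genes beyond the first 4 were added after their values were seen. The intestinal check genes were set by hand. Of the genes the rule names, some are not reported here.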

Additional observations from a re-analysis of the deposited data

Results flagged for a closer look

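Of 228 sets of 6 arrays (99 named genes and 15 list means in the 2 drug groups), 10 had an array far from the other 5, by Dixon's test at its 95% critical value. Chance flags about 1 set in 20. No cause was tested.

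After ATB-346, 4 genes had a high array: Gsdmc3 at 10.31 on replicate 4 (others 8.71 to 9.30), Nsdhl at 9.22 on replicate 6 (8.22 to 8.55), Cldn4 at 11.40 on replicate 2 (10.45 to 10.74) and the elastase gene Cela2a at 6.49 on replicate 1 (6.08 to 6.16). The mean of the G1 list was high too, at 8.93 on ATB-346 replicate 2 (8.75 to 8.81). Tac1 was low on ATB-346 replicate 4, at 8.87 (9.18 to 9.32).

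After naproxen, replicate 3 stood apart in 3 sets: Casp9 at 8.26 (7.86 to 8.01), Car4 at 13.55 (11.59 to 12.04) and the inflammatory list mean at 8.61 (8.27 to 8.34). The smooth muscle mean was 10.94 on naproxen replicate 5 (10.20 to 10.37).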

How the results depend on the processing

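No gene was called in any of the 29 other settings, except Ccnd1 without ATB-346 replicate 2 (count 1, range 0 to 1 over single arrays left out). The count at an unadjusted p under 0.05 was 586 without the numbering block, 427 in replicates 1 to 4 alone and 1471 with no filter, where more targets were tested. It ran from 669 without ATB-346 replicate 6 to 1319 without naproxen replicate 3. The cholesterol genes at an unadjusted p under 0.05 numbered 1 in replicates 5 and 6 alone, with 2 arrays a drug, and 13 to 15 with single arrays left out, and the list median was 0.40 without ATB-346 replicate 6 and 0.64 without replicate 5. It lay between 0.46 and 0.56 under the other normalizations, array weights, the series matrix and the blocks. The count for the difference by numbering was 0 also in the drug arrays alone, with no filter and with median scaling, the alternatives run for it. Named genes at an unadjusted p under 0.05 kept their direction in all settings run.

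Replicate numbers need not pair samples: same-numbered drug arrays deviated with correlations of 0.552, 0.352, 0.257, -0.101, 0.107 and 0.328, and 3 of 6 ATB-346 arrays correlated best with their own number. With the replicate number as a block, 0 genes were called, 916 had an unadjusted p under 0.05, and the cholesterol median was 0.52.

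The number of arrays and the floor of 5.65 limit dim genes such as Ptgs2.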
